A study of Mus musculus with 12 samples.

Results

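The 10 genes described here are markers and regulators of red cell and megakaryocyte differentiation: Gata1, Klf1, Gfi1b, Epor, Tfrc, Alas2, Hba-a1, Hbb-bt, Pf4 and Itga2b. They are a list of names with no threshold on a measured value, though drawn up with earlier results of these data known, and 9 of them have a row among the 15651 genes of the table, where transcript abundance is given as TPM, a unit already scaled to transcript length and to library size. Hba-a1 has no row. RNA was sequenced from 12 libraries of leukemic splenocytes of 6 moribund mice. D/F AML mice carried Dnmt3a fl/fl, Flt3 ITD/ITD and Mx1Cre, and T/F AML mice carried Tet2 fl/fl, Flt3 ITD/ITD and Mx1Cre, so that all groups share the homozygous Flt3 internal tandem duplication and the Cre. In the study's methods Mx1Cre, an interferon-inducible transgene, was not induced, and spontaneous recombination was left to remove 1 or both of the floxed alleles. By the study's methods, red blood cells were lysed before spleen cells were selected with CD117 (c-Kit) microbeads. The selected cells were kept for 6 h in medium with stem cell factor, IL-6 and IL-3, with no erythropoietin or thrombopoietin listed. From each of 3 mice per genotype, cells were exposed to DMSO or to CCS1477, a bromodomain inhibitor of the histone acetyltransferases p300 and CBP, at 4 μM for D/F and 2 μM for T/F. Dose and genotype therefore cannot be told apart. The ages of the mice are not given in the sources used here.

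Red cells and megakaryocytes arise from a shared progenitor, in which Gata1 and its partners replace Gata2 and switch on lineage genes. Klf1 and Gfi1b then act in the erythroid branch, erythropoietin signalling through Epor keeps the cells alive, and transferrin-bound iron taken up through Tfrc feeds heme synthesis, whose erythroid first step is Alas2, for the globin chains. Pf4, a platelet chemokine, and Itga2b, the CD41 integrin chain, mark the megakaryocyte branch. CBP and p300 are known coactivators of Gata1 and Klf1. In the mouse the spleen is a site of red cell production.

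By their markers, the cells left after red cell lysis and c-Kit selection were rich in myeloid and poor in red cell transcripts. Kit, the gene of the selected surface protein, lay between 50.5 and 149 TPM in the 6 DMSO libraries. The 13 neutrophil and monocyte markers summed to 6120 to 20487 TPM there, against 0.436 to 9.61 TPM for the 3 globin genes with a row. Gene-level abundance does not read the floxed exons: in DMSO, Dnmt3a was at 29.3, 55.7 and 33.1 TPM in D/F and 39.9 to 53.9 TPM in T/F, and Tet2 was at 30.0 to 35.8 TPM in T/F and 38.3 to 43.4 TPM in D/F. D/F replicate 2 stood apart from the other D/F mice. Of the 9 measured genes, 8 were highest in that mouse under DMSO and 7 were more than 2-fold above both other D/F mice, beside 61.6% and 10.4% of the 15501 genes tested. Its neutrophil and monocyte markers were the lowest of the D/F mice (6120 TPM against 14392 and 20487 TPM). Its stem and progenitor markers were the highest (1049 TPM against 376 and 464 TPM). For the members called in D/F, values are given with and without this mouse.

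The plot of transcript abundance by mouse shows the 9 genes side by side. Tfrc was the most abundant (mean 173 TPM over the 12 libraries, range 48.0 to 276 TPM) and lay at percentile 95.0 of all genes. Itga2b (13.1 to 121 TPM), Pf4 (6.17 to 67.0 TPM), Gfi1b (6.72 to 40.3 TPM) and Alas2 (7.33 to 20.1 TPM) followed with overlapping ranges. Gata1 (0.617 to 11.4 TPM), Klf1 (1.02 to 7.36 TPM), Hbb-bt (0 to 5.93 TPM) and Epor (0.0496 to 2.19 TPM) were the lowest, again with overlapping ranges. Fewer cells of a type and less RNA per cell cannot be told apart in such bulk libraries.

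**Figure D1:**
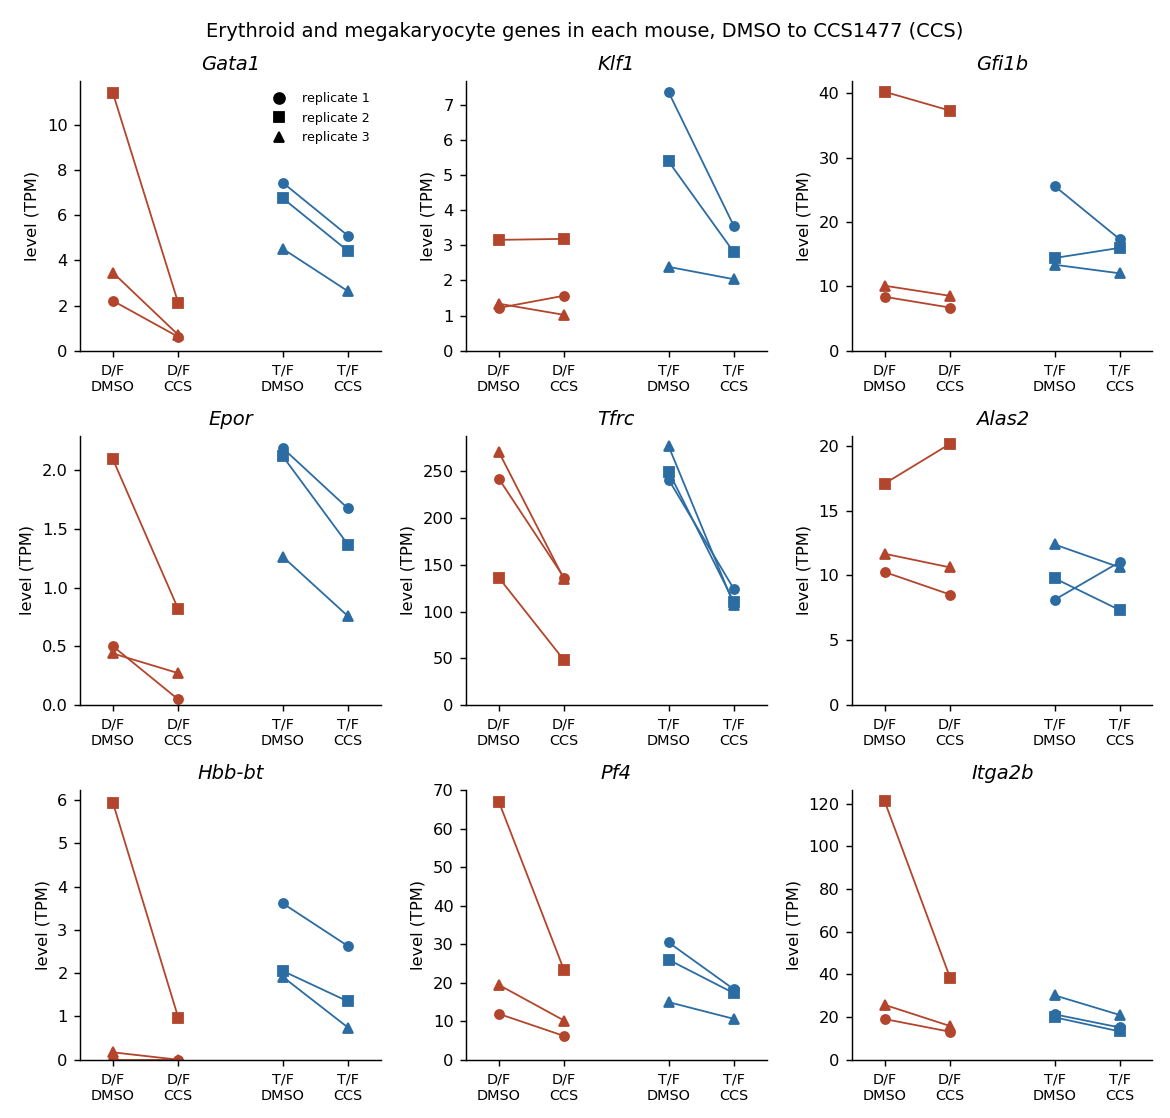
Abundance in TPM (linear axes from 0) of the 9 measured genes, 1 panel per gene. Each line joins the DMSO and CCS1477 cells of 1 mouse, D/F in red and T/F in blue, with symbols for replicates 1 to 3. D/F replicate 2 (squares) is the highest D/F line in every panel but Tfrc, where it is the lowest.

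Exposure to CCS1477 lowered Tfrc in T/F cells, and no other of the 9 genes passed the limits of the unpaired comparison. These limits were a limma adjusted p under 0.05 and a change above 2-fold on log2(TPM + 1). In T/F, 1 of 9 was called lower and 0 higher, beside 4.70% and 2.63% of the 15256 genes tested. In D/F, 0 of 9 were called in either direction, beside 4.61% lower and 2.67% higher of 15501 genes tested. The number of D/F calls over all genes was 1128 with all mice, 1526 without replicate 2, and 0 without replicate 1 or replicate 3. Without the limit on size, the counts stayed at 1 lower in T/F (17.6% of all genes lower, 25.8% higher) and 0 in D/F (6.51% lower, 5.14% higher).

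Since both arms came from the same mice, the comparison was also made within each mouse, with mouse as a block. In D/F, Gata1, Tfrc and Pf4 were then called lower by more than 2-fold (3 of 9, beside 6.97% of all genes lower and 4.23% higher). Without D/F replicate 2 that fit called Gata1 alone above 2-fold, 1 of the 7 members then tested (beside 6.24% of all genes lower and 5.02% higher), while Tfrc, Pf4 and Itga2b kept an adjusted p under 0.05 at less than 2-fold. Itga2b also fell, by less than 2-fold, which brought the count at any size to 4 of 9 lower and 0 higher (18.0% and 21.4% of all genes). In T/F the same fit called 7 of 9 lower and 0 higher at any size (22.9% and 31.2% of all genes), of which Tfrc alone exceeded 2-fold (beside 5.18% lower and 2.67% higher). Gfi1b and Alas2 were called in neither genotype by either fit. The plot of the difference within each mouse shows 6 of 9 genes lower with CCS1477 in all 3 D/F mice and 7 of 9 in all 3 T/F mice, where 4800 of 15501 and 4775 of 15256 of all genes tested were lower in all 3 mice.

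**Figure D2:**
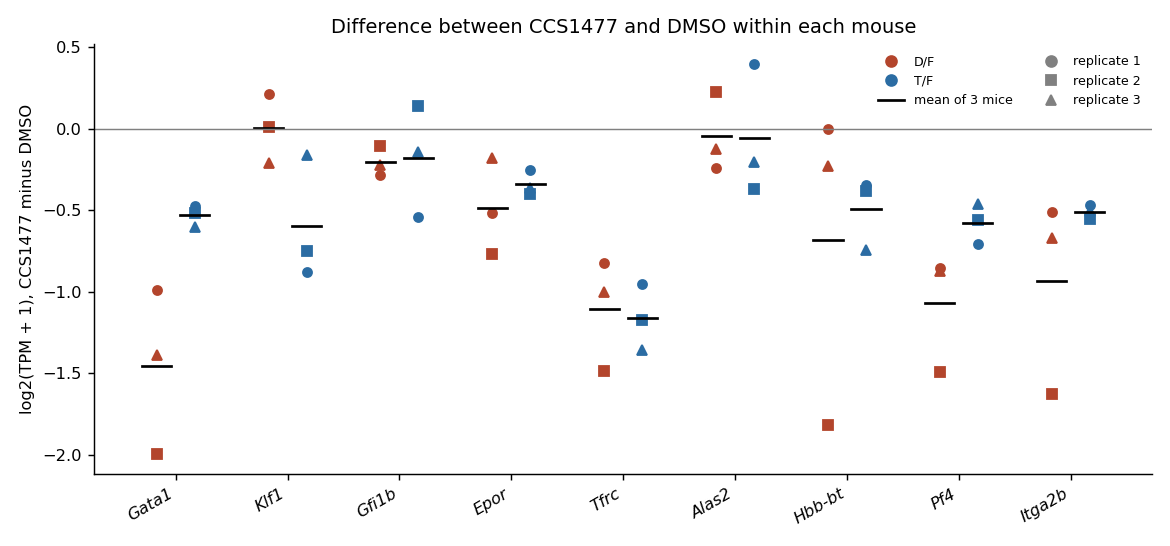
Difference in log2(TPM + 1) between CCS1477 and DMSO within each mouse, for the 9 genes, D/F in red and T/F in blue, with a black bar at the mean of 3 mice. Tfrc lies between -1.49 and -0.82 in all 6 mice, whereas Alas2 scatters around 0.

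Of the 3 transcription factors among the members, Gata1 had the largest within-mouse differences in D/F. Gata1 encodes the zinc finger factor required for erythroid and megakaryocyte maturation (chrX:7959260-7978071, minus strand, GRCm38). In D/F it was at 2.21, 11.4 and 3.46 TPM with DMSO and at 0.617, 2.11 and 0.704 TPM with CCS1477. All 3 treated samples lay below all 3 controls, as in 16.7% of all genes, and each mouse was between 0.185 and 0.279 times its control. The log2 fold change was -1.46 (SE 0.54, limma adjusted p = 0.126 unpaired and 0.0132 with mouse as a block). Without replicate 2, the unpaired call was made (log2 fold change -1.19, limma adjusted p = 0.0266), and with mouse as a block and without that mouse it was made too (adjusted p = 0.0216). In T/F Gata1 was at 7.44, 6.75 and 4.52 TPM with DMSO and at 5.09, 4.41 and 2.63 TPM with CCS1477, so that the groups overlapped while every mouse was lower. The log2 fold change there was -0.53 (SE 0.25, limma adjusted p = 0.135 unpaired and 0.00436 blocked).

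Klf1, the CACCC-box factor that activates the adult β-globin gene (chr8:84901928-84905291, plus strand), did not move together in the D/F mice. It was at 1.22, 3.16 and 1.34 TPM with DMSO and at 1.57, 3.18 and 1.02 TPM with CCS1477, higher in 2 mice and lower in the other. In T/F it was at 7.36, 5.39 and 2.39 TPM with DMSO and at 3.55, 2.80 and 2.04 TPM with CCS1477, lower in all 3 mice with overlapping groups. The T/F log2 fold change was -0.60 (SE 0.35, limma adjusted p = 0.221 unpaired and 0.0461 blocked).

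Gfi1b, a repressor needed in both lineages (chr2:28609450-28621982, minus strand), was at 8.39, 40.3 and 10.1 TPM in D/F with DMSO and at 6.72, 37.3 and 8.54 TPM with CCS1477. The T/F values were 25.6, 14.4 and 13.4 TPM with DMSO and 17.3, 16.0 and 12.04 TPM with CCS1477. Neither difference was called (log2 fold change -0.20 and -0.18, limma adjusted p = 0.894 and 0.621 unpaired, 0.141 and 0.364 blocked), and of the 3 treated T/F values 2 lay inside the range of the controls and 1 lay below it.

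The wider list of 16 erythroid and megakaryocyte transcription factors, of which 15 had a row, held stronger changes than these members. In D/F 4 of 15 were called lower above 2-fold and 0 higher, and in T/F 2 of 15 lower and 0 higher, beside 4.61% and 4.70% of all genes lower. The blocked fit called 6 of 15 lower above 2-fold in D/F (6.97% of all genes), and 2 of 15 in T/F (5.18%). At any size it called 7 lower and 0 higher in D/F (18.0% and 21.4% of all genes), and 12 lower and 1 higher in T/F (22.9% and 31.2%). In all 3 mice 11 of 15 were lower in D/F and 12 of 15 in T/F (4800 of 15501 and 4775 of 15256 of all genes). Only Zfpm1 was higher in all 3 mice, at 1.072 to 2.2 times its control in D/F and 1.255 to 1.524 times in T/F. The list's median lay at -0.77 in D/F and -0.36 in T/F on the log2 scale, where the medians of all genes tested were 0.06 and 0.07. Lmo2, the bridging subunit of the Gata1 and Tal1 complex, fell from 218, 482 and 298 TPM to 49.0, 71.3 and 61.8 TPM in D/F and from 277, 231 and 307 TPM to 91.3, 88.0 and 89.4 TPM in T/F (limma adjusted p = 0.0106 and 0.00051). Myb, a progenitor factor, fell from 332, 406 and 298 TPM to 63.5, 80.2 and 60.7 TPM in D/F and from 247, 218 and 252 TPM to 82.2, 63.0 and 90.9 TPM in T/F (limma adjusted p = 0.0043 and 0.000933). Fli1 and Runx1, which act in megakaryocytes and in myeloid progenitors alike, were the remaining D/F calls. Nfe2, also abundant, was lower in all 6 mice and was called by the blocked fit in T/F only, under 2-fold (log2 fold change -1.17 in D/F, limma adjusted p = 0.0919 unpaired and 0.0539 blocked, and -0.24 in T/F, adjusted p = 0.153 and 0.0248). Gata2 showed no call by either fit, with 20.0, 80.1 and 30.0 TPM in D/F with DMSO and 20.4, 43.2 and 23.2 TPM with CCS1477.

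The 250 bases upstream of the RefSeq starts (GRCm38.p6) were searched on both strands for GATA words (the letters AGATAA, with T also allowed as the first and G as the last letter, 4 words in all) and for the CACCC-type word CCNCNCCC, since Gata1 and Klf1 bind such words. The 10 genes have 11 such windows, 2 of them for Tfrc. A GATA word stood upstream of 5 of the 10 genes, against 26.5% of 32851 such windows, and a CACCC-type word upstream of 7 of the 10, against 45.9%. The GATA words of the 4 measured genes that hold any are printed in capitals with the 20 bases on each side, 5′ to 3′ on the gene's strand, to show where the letters stand in each gene. The fifth gene was Hba-a1, which has no row.
Gfi1b, chr2:28622077-28622122: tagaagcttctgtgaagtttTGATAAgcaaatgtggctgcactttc
Klf1, chr8:84901882-84901927: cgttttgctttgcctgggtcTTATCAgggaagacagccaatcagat
Epor, chr9:21963605-21963650: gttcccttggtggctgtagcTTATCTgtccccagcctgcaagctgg
Alas2, chrX:150547311-150547356: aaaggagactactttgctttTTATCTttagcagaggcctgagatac
These words begin 120 bases (Gfi1b), 80 bases (Klf1), 54 bases (Epor) and 86 bases (Alas2) before the start. Gata1, Tfrc, Pf4, Hbb-bt and Itga2b had none of these words in this window. A match describes the letters in the window and shows no binding.

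Epor, the erythropoietin receptor gene (chr9:21958897-21963506, minus strand), was under 1 TPM in 5 of 6 D/F libraries. It was at 0.502, 2.09 and 0.441 TPM with DMSO and at 0.0496, 0.818 and 0.273 TPM with CCS1477. The T/F cells had 2.19, 2.12 and 1.26 TPM with DMSO and 1.67, 1.37 and 0.757 TPM with CCS1477. It was lower with CCS1477 in all 6 mice, with overlapping groups. The D/F log2 fold change of -0.49 was not called (SE 0.36, limma adjusted p = 0.406 unpaired and 0.0586 blocked), and that of -0.34 in T/F was called by the blocked fit alone (SE 0.21, adjusted p = 0.231 unpaired and 0.0124 blocked). Of the 8 genes of the erythropoietin receptor pathway, 0 were called above 2-fold in either genotype, beside 4.61% lower and 2.67% higher of all genes for D/F, and 4.70% and 2.63% for T/F. The abundant members of that list are shared with other cytokine receptors: Ptpn6, Lyn and Jak2 averaged 188, 113 and 64.0 TPM.

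Tfrc, the transferrin receptor gene that brings iron into dividing and hemoglobin-making cells (chr16:32608920-32632794, plus strand), fell in T/F by both fits and in D/F by the blocked fit. In T/F it was at 241, 249 and 276 TPM with DMSO and at 124, 110.2 and 107 TPM with CCS1477, groups that did not overlap (beside 22.6% of all genes with the treated samples lower). The T/F log2 fold change was -1.16 (SE 0.089, limma adjusted p = 0.000608). In D/F it was at 242, 136 and 270.2 TPM with DMSO and at 136, 48.0 and 134 TPM with CCS1477. There too the groups were apart, with the highest treated and the lowest control value at nearly the same level, and each mouse was between 0.352 and 0.563 times its control. The D/F log2 fold change was -1.10 (SE 0.47, limma adjusted p = 0.176 unpaired and 0.0124 blocked). Without replicate 2 it was -0.91, under 2-fold (adjusted p = 0.0192 unpaired and 0.0206 blocked). The exact two-sided permutation test of 3 against 3 samples gave p = 0.1 in each genotype, the smallest it can give. Tfrc was the only member for which D/F replicate 2 was the lowest of the D/F mice under both treatments.

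The list of 12 genes of iron uptake and handling held calls in both directions. In T/F 5 of 12 were called lower above 2-fold (Tfrc, Tfr2, Steap3, Slc25a37 and Hfe) and 0 higher, and in D/F 3 of 12 lower and 1 higher, beside 4.70% and 4.61% of all genes lower and 2.63% and 2.67% higher. Steap3, the endosomal iron reductase, fell from 24.7, 21.7 and 20.9 TPM to 9.69, 9.93 and 8.19 TPM in T/F and from 20.6, 25.1 and 26.4 TPM to 9.38, 8.72 and 10.3 TPM in D/F (limma adjusted p = 0.00077 and 0.00954). Slc25a37, the mitochondrial iron importer, fell from 42.9, 39.0 and 43.0 TPM to 19.5, 18.1 and 20.7 TPM in T/F and from 44.9, 50.4 and 42.0 TPM to 18.2, 23.0 and 20.0 TPM in D/F (adjusted p = 0.000544 and 0.0122). Hfe, a partner of the transferrin receptor, fell in both genotypes as well (log2 fold change -1.67 and -1.77, adjusted p = 0.000935 and 0.00767).

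Of the iron storage genes, Ftl1, the ferritin light chain gene, rose in D/F from 2112, 3291 and 2343 TPM to 5538, 15102 and 6504 TPM (log2 fold change 1.69, SE 0.41, limma adjusted p = 0.0461), a call that was lost with a pseudocount of 0.1 TPM. In T/F it rose by less than 2-fold, from 3003, 3375 and 2673 TPM to 5450, 6535 and 5479 TPM (adjusted p = 0.00219). Fth1, the ferritin heavy chain gene, was higher with CCS1477 in all 6 mice and was called by the blocked fit only (log2 fold change 0.58 and 0.27, adjusted p = 0.0134 for D/F, 0.0186 for T/F). Ncoa4, the receptor for ferritin breakdown, was lower in all 6 mice (log2 fold change -0.72 in D/F, adjusted p = 0.295 unpaired and 0.00883 blocked, and -0.77 in T/F, adjusted p = 0.00435).

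Tfrc and the ferritins are textbook targets of the iron regulatory proteins Aco1 and Ireb2, which bind hairpins in untranslated regions, stabilizing Tfrc mRNA and blocking ferritin translation. A hairpin made of C, 5 bases, CAGTG, 1 base other than G and 5 bases that pair with the first 5 was searched in 193 genes of the lists in the GENCODE vM21 transcripts. It was found in an untranslated region of 5 genes, and 1 further match, in Treml1, was coding. The sites are printed 5′ to 3′ with the 6-base loop in capitals, since they mark which members could be read by this system, and the coordinates (GRCm38) span the 17 bases of the hairpin. The 4 Tfrc sites lie in the 3′ untranslated region and the others in 5′ untranslated regions.
Tfrc, chr16:32631225-32631241: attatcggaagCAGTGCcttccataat
Tfrc, chr16:32631604-32631620: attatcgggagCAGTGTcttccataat
Tfrc, chr16:32631669-32631685: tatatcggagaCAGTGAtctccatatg
Tfrc, chr16:32631716-32631732: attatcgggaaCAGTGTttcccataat
Alas2, chrX:150547464-150547480: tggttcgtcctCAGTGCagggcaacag
Fth1, chr19:9982738-9982754: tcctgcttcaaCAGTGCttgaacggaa
Ftl1, chr7:45459785-45459801: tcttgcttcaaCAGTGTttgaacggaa
Slc40a1, chr1:45925471-45925487: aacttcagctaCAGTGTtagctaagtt
Among the genes with a hairpin, Tfrc fell, Ftl1 rose and Alas2 was not called. Slc40a1, the iron exporter, was lower in all 3 T/F mice (13.2, 9.58 and 5.15 TPM to 7.50, 5.94 and 3.07 TPM, adjusted p = 0.235 unpaired and 0.00342 blocked) and without a common direction in D/F. The genes of both binding proteins were higher in all 6 mice, with log2 fold changes of 0.57 and 0.31 for Aco1 and 0.41 and 0.33 for Ireb2 in D/F and T/F. They were called by the blocked fit in both genotypes (adjusted p = 0.0268 and 0.0114 for Aco1, 0.0297 and 0.00866 for Ireb2). A hairpin match shows no binding, and the part of the iron regulatory proteins in these RNA values was not tested.

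**Figure D3:**
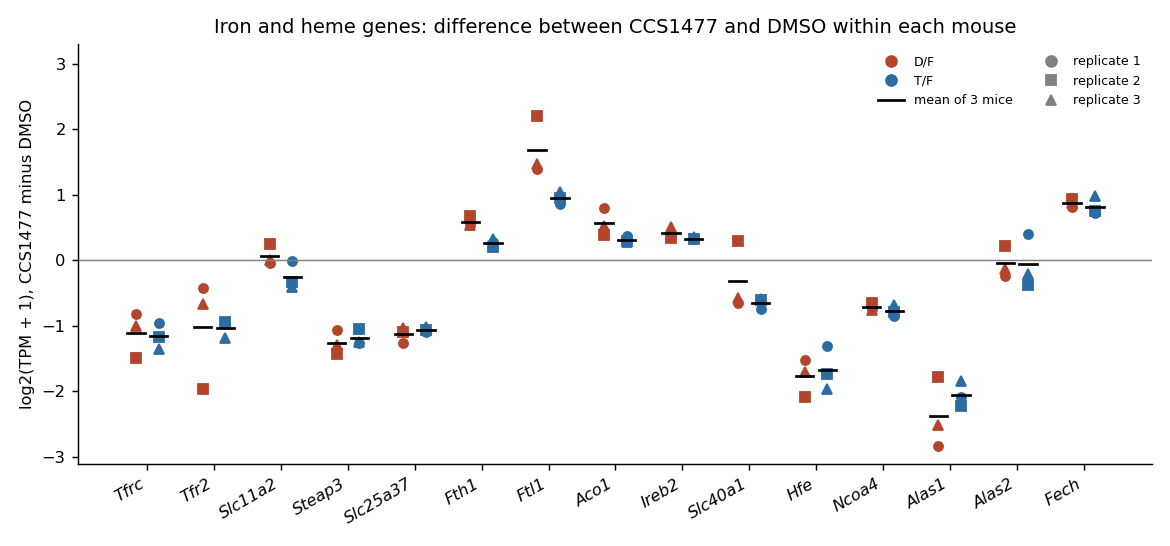
Difference in log2(TPM + 1) between CCS1477 and DMSO within each mouse for the 12 genes of the iron list, followed by Alas1, Alas2 and Fech, D/F in red and T/F in blue, with a black bar at the mean of 3 mice. Tfrc, Tfr2, Steap3, Slc25a37, Hfe, Ncoa4 and Alas1 lie below 0 and Ftl1, Fth1, Aco1, Ireb2 and Fech above 0 in all 6 mice.

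Alas2, the erythroid 5-aminolevulinate synthase gene (chrX:150547375-150570638, plus strand), was not called in either genotype. It was at 10.3, 17.1 and 11.7 TPM in D/F with DMSO and at 8.53, 20.1 and 10.6 TPM with CCS1477. Its T/F values were 8.12, 9.78 and 12.4 TPM with DMSO and 11.0, 7.33 and 10.6 TPM with CCS1477. In each genotype 2 mice were lower and 1 higher, and the log2 fold changes of -0.05 and -0.06 were smaller than their errors (SE 0.34 and 0.20, limma adjusted p = 0.944 and 0.833). Its exons share 311 bases with Apex2 on the opposite strand, at 24.5 to 33.5 TPM in all 12 libraries. The library kit keeps strand, but the strand setting of the counting is not given in the sources used here, so part of the Alas2 value may belong to Apex2.

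Alas1, the housekeeping counterpart of Alas2 that was not among the 10 genes, carried the largest change of the 13 heme synthesis genes. It fell from 913, 223 and 487 TPM to 127, 64.1 and 84.1 TPM in D/F and from 439, 505 and 395 TPM to 103, 108 and 109.6 TPM in T/F (log2 fold change -2.38, SE 0.53, limma adjusted p = 0.0375, and -2.05, SE 0.10, adjusted p = 0.000333). The other 12 genes of the list had no call above 2-fold, and the median of the 13 lay at -0.03 in D/F and -0.04 in T/F. At any size the blocked fit called 3 higher and 1 lower in D/F (21.4% and 18.0% of all genes). In T/F it called 3 higher and 3 lower (31.2% and 22.9%). Uros and Urod were higher in all 3 mice of each genotype, at 1.383 to 2.042 times their controls. Fech, which inserts iron into the ring, rose by less than 2-fold in both (log2 fold change 0.87 and 0.82, adjusted p = 0.0189 and 0.00116). The abundant Tmem14c was not called by either fit.

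The globin genes were scarcely detected in these cells, which were prepared with red cell lysis. Hbb-bt, an adult β-globin gene (chr7:103812524-103813996, minus strand), was at 0, 5.93 and 0.171 TPM in D/F with DMSO and at 0, 0.972 and 0 TPM with CCS1477. T/F cells held 3.61, 2.05 and 1.92 TPM with DMSO and 2.63, 1.35 and 0.743 TPM with CCS1477, lower in all 3 mice with overlapping groups. The T/F log2 fold change was -0.49 (SE 0.31, limma adjusted p = 0.253 unpaired and 0.0224 blocked), and the D/F value of -0.68 (SE 0.76, adjusted p = 0.594 unpaired and 0.239 blocked) came mainly from replicate 2. The log2(TPM + 1) scale understates changes at such levels, and reads of Hbb-bt and of its near-identical copy Hbb-bs (0.174 to 3.28 TPM) can be divided between them. Hba-a1 (chr11:32283511-32284465, plus strand), the α-globin gene without a row, has a near-identical copy, Hba-a2, which was at 0 to 2.09 TPM and was listed at 0 in all 3 D/F libraries with CCS1477.

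The list of red cell membrane and skeleton genes summed to 148 to 347 TPM per library, with most of it in a few genes that are not restricted to red cells, namely Epb41 (mean 87.1 TPM), Car2 (46.1 TPM) and Gypc (27.5 TPM). Of 20 listed, 19 had a row, 1 was called lower above 2-fold in each genotype (Gypc in D/F and the water channel gene Aqp1 in T/F) and 0 higher, which is 1 of 16 and 1 of 18 tested beside 4.61% and 4.70% of all genes lower. The Aqp1 call was lost without T/F replicate 1 or 2 and in the shared fit of 4 groups. With mouse as a block 3 were called lower above 2-fold in each genotype (6.97% and 5.18% of all genes). Without D/F replicate 2 the D/F count of that fit was 1 of 11 tested (6.24% of all genes). With all mice and at any size, the blocked fit called 4 of 16 tested lower and 1 higher in D/F (18.0% and 21.4% of all genes). In T/F it called 12 of 18 lower and 0 higher (22.9% and 31.2% of all genes). Slc4a1, the band 3 gene and a defining marker of hemoglobin-filled erythroblasts, was at 0.0762, 0.123 and 0.251 TPM in D/F with DMSO and at 3.04, 1.99 and 0.736 TPM in T/F. It was lower in all 3 D/F than in all 3 T/F libraries with DMSO, whereas Gypc was higher (37.7 to 42.0 TPM against 31.9 to 34.7 TPM), and the other genes of the list overlapped between genotypes, beside 12.6% of all genes that did not. The late erythroid list of 12 genes, 9 with a row, had 1 call higher in each genotype (Tent5c in D/F and Bnip3l in T/F, beside 2.67% and 2.63% of all genes) and 1 lower in T/F (Hemgn, beside 4.70%). In T/F the Bnip3l call was lost after rescaling to the median gene and without replicate 1 or 3, and the Hemgn call without replicate 1 or 2 and in the shared fit. The blocked fit called 3 higher and 1 lower above 2-fold in D/F (4.23% and 6.97% of all genes). Bnip3l, the mitophagy receptor gene used when reticulocytes clear their mitochondria, rose in T/F from 92.7, 134 and 85.7 TPM to 199.6, 226 and 199.2 TPM (limma adjusted p = 0.00647). The blocked fit called it higher in D/F too (log2 fold change 1.06, adjusted p = 0.095 unpaired and 0.0119 blocked). Prdx2 and Xpo7, the other abundant genes of that list, were not called.

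Pf4 (chr5:90772435-90773383, plus strand) was the platelet gene with the larger drop in D/F. It was at 11.9, 67.0 and 19.4 TPM with DMSO and at 6.17, 23.2 and 10.2 TPM with CCS1477, so that each mouse was between 0.346 and 0.523 times its control although the groups overlapped. The D/F log2 fold change was -1.07 (SE 0.70, limma adjusted p = 0.355 unpaired and 0.0143 blocked). Without replicate 2 it was -0.86, under 2-fold (adjusted p = 0.130 unpaired and 0.0196 blocked). In T/F Pf4 was at 30.5, 26.0 and 15.0 TPM with DMSO and at 18.3, 17.3 and 10.6 TPM with CCS1477 (log2 fold change -0.58, SE 0.31, adjusted p = 0.192 unpaired and 0.00608 blocked), lower in all 3 mice.

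Itga2b (chr11:102453297-102470122, minus strand) was at 19.1, 121 and 25.7 TPM in D/F with DMSO and at 13.1, 38.5 and 15.8 TPM with CCS1477. The D/F log2 fold change of -0.93 (SE 0.74, limma adjusted p = 0.442 unpaired and 0.0494 blocked) held a difference of -1.63 in replicate 2 against -0.51 and -0.67 in the others. Without that mouse it was -0.59 (adjusted p = 0.0972 unpaired and 0.0349 blocked). In T/F it was at 21.3, 19.9 and 30.2 TPM with DMSO and at 15.1, 13.3 and 21.0 TPM with CCS1477, with differences of -0.47, -0.55 and -0.51 in the 3 mice (adjusted p = 0.112 unpaired and 0.00406 blocked).

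The list of 30 megakaryocyte and platelet genes, 27 with a row, contained more calls than Pf4 and Itga2b alone. Above 2-fold, 4 of 27 were called lower in D/F (Tuba8, F2rl3, F5 and F2rl2) and 7 of 26 in T/F, with 0 higher in both, beside 4.61% and 4.70% of all genes lower, and the median log2 fold changes were -0.91 and -0.56. With mouse as a block 11 of 27 were called lower above 2-fold in D/F and 7 of 26 in T/F (6.97% and 5.18% of all genes), and without D/F replicate 2 that fit called 8 of 25 (6.24%). Lower values in all 3 mice were found for 21 of 27 and 19 of 26, beside 4800 of 15501 and 4775 of 15256 of all genes. Higher values in all 3 mice were found for 0 of 27 and 1 of 26, beside 5968 and 6694 of all genes. That 1 was Gp1ba, at 1.238 to 1.47 times its control in T/F, and it was higher in 2 of 3 D/F mice. Vwf had no common direction in either genotype. Tuba8, an α-tubulin gene, fell from 32.6, 33.9 and 28.2 TPM to 3.15, 1.09 and 2.71 TPM in D/F and from 19.8, 13.6 and 21.6 TPM to 3.91, 3.01 and 3.72 TPM in T/F (limma adjusted p = 0.0043 and 0.000839). F2rl3, the thrombin receptor PAR4 gene, fell from 5.48, 17.8 and 9.25 TPM to 1.35, 1.93 and 1.01 TPM and from 6.23, 4.97 and 7.51 TPM to 1.48, 1.41 and 2.05 TPM (adjusted p = 0.0235 and 0.0015). Plek, a platelet and leukocyte signalling protein gene, fell in T/F (log2 fold change -1.17, adjusted p = 0.00745) and had a like value in D/F that only the blocked fit called (-1.21, adjusted p = 0.273 unpaired and 0.00619 blocked). The tetraspanin gene Cd9, the most abundant of the list, was not called (log2 fold change 0.01 in each genotype), and Rgs18 was lower in D/F by the blocked fit alone (adjusted p = 0.402 unpaired and 0.0411 blocked).

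**Figure D4:**
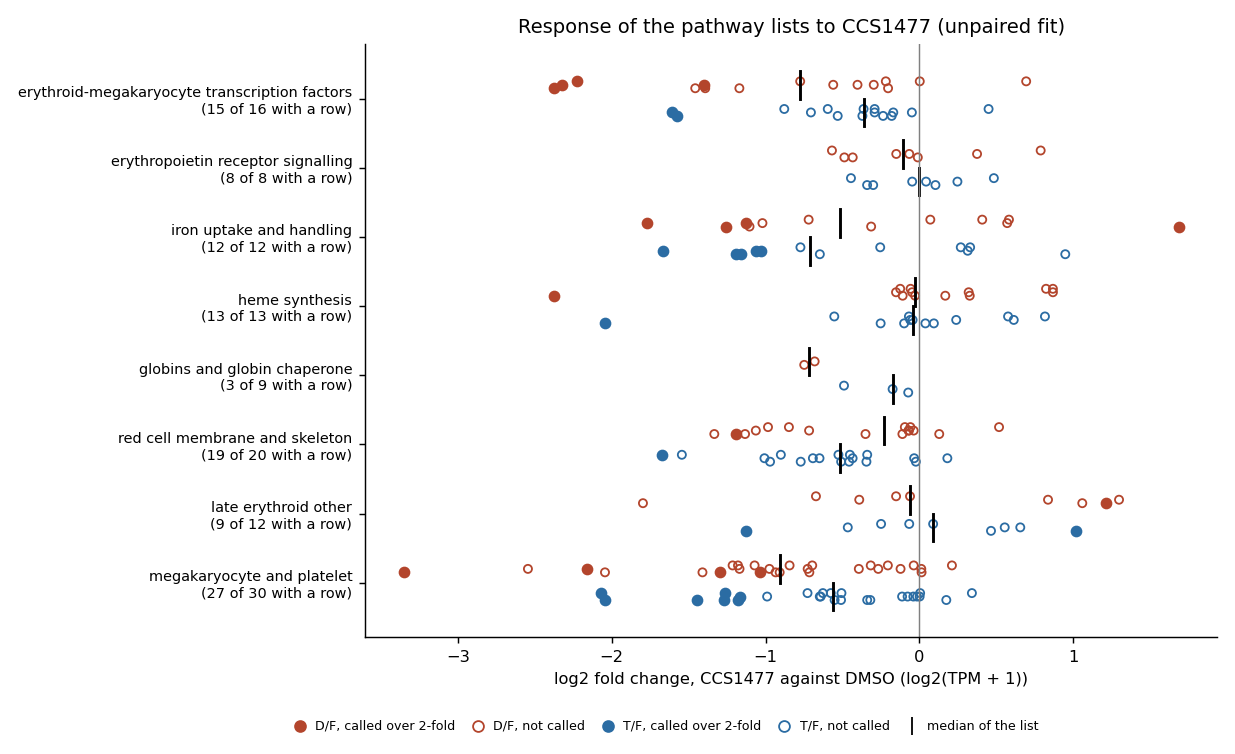
Log2 fold change of CCS1477 against DMSO on log2(TPM + 1) for the genes of 8 erythroid and megakaryocyte lists, 1 point per gene tested, D/F in red above T/F in blue, filled where called above 2-fold by the unpaired fit, with a black bar at each list's median. The transcription factor and megakaryocyte lists lie mostly below 0 in both genotypes, and the heme synthesis list is centred near 0 with Alas1 far to the left.

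Over all 8 lists, 106 of 120 genes had a row. In D/F 13 of 102 tested were called lower above 2-fold and 2 higher, and in T/F 17 of 104 lower and 1 higher, where the shares of all genes were 4.61% lower and 2.67% higher for D/F, 4.70% lower and 2.63% higher for T/F. With mouse as a block the counts were 26 lower and 4 higher in D/F (6.97% and 4.23% of all genes) and 19 lower and 1 higher in T/F (5.18% and 2.67%). The unpaired fit called 8 of them in both genotypes, all lower: Lmo2, Myb, Steap3, Slc25a37, Hfe, Alas1, F2rl3 and Tuba8. None of the 8 belongs to the 10 genes described here. Without D/F replicate 2, the D/F calls of these lists were 18 lower and 3 higher of 92 tested, the 8 common genes included, beside 840 lower and 686 higher of all 15191 genes tested, and without replicate 1 or replicate 3 they were 0.

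Markers of other cell types moved at the same time. The mast cell and basophil markers, 7 of 15 with a row, summed to 152 to 236 TPM in D/F with DMSO and 24.6 to 63.1 TPM with CCS1477, and to 62.1 to 114 TPM and 25.9 to 48.8 TPM in T/F. All 7 were lower in all 3 mice of each genotype, led in abundance by Mcpt8, Cpa3 and Cyp11a1, while the mast cell protease genes Mcpt4, Cma1 and Tpsb2 have no row. The eosinophil markers, 8 of 10 with a row, summed to 96.6 to 162 TPM with DMSO and 21.3 to 64.7 TPM with CCS1477 in D/F, and to 54.4 to 95.4 TPM and 18.3 to 45.6 TPM in T/F. Cebpe led them in abundance, with a mean of 61.8 TPM in D/F with DMSO, where the sum averaged 124.5 TPM. All 8 were lower in all 3 mice of each genotype. Of all genes, 4800 of 15501 in D/F and 4775 of 15256 in T/F were lower in all 3 mice. Mast cells and eosinophils also use Gata1. The sum of the 13 neutrophil and monocyte markers was lower with CCS1477 in every mouse (2445 to 14057 TPM in D/F and 4149 to 10064 TPM in T/F), but its members went both ways. In all 3 mice, 9 of 13 were lower in each genotype, Mpo among them, and 0 in D/F and 2 in T/F (Ngp and Ltf) were higher, while the abundant S100a8 and S100a9 had no common direction. The list of 10 stem and progenitor markers holds surface protein genes and transcription factor genes such as Meis1. Its sum was lower in every mouse too (216 to 321 TPM and 239 to 383 TPM with CCS1477). In all 3 mice of each genotype 7 of 10 were lower, Cd34 and Cd48 among them. Meis1, also abundant in that list, was higher in all 3 T/F mice (log2 fold change 0.49, limma adjusted p = 0.182 unpaired and 0.00408 blocked) and in 2 of 3 D/F mice. The red pulp and island macrophage markers, 7 of 11 with a row, summed to 45.5 to 83.3 TPM with DMSO and 40.6 to 98.8 TPM with CCS1477. Hmox1, the most abundant of them on average, was higher in all 3 D/F mice and had no common direction in T/F. Of that list 3 of 6 tested were called lower above 2-fold in D/F (Vcam1, Adgre1 and C1qb) and 2 of 7 in T/F (Vcam1 and Adgre1), with 0 higher, beside 4.61% and 4.70% of all genes lower. Without D/F replicate 2 the D/F count was 1 of 5, and without T/F replicate 2 the T/F count was 1 of 7. The T and NK cell markers, 5 of 10 with a row and led by Cd3d, Lck and Cd8a, summed to 17.6 to 50.4 TPM in the 12 libraries. Their sum fell in each D/F mouse, from 26.95, 50.44 and 33.61 TPM to 21.18, 28.09 and 17.95 TPM, and had no common direction in T/F. In all 3 D/F mice, 4 of 5 were lower and 1 was higher. The B cell markers, 5 of 8 with a row and led by Ighm, Igkc and Cd79b, rose in their sum in each T/F mouse, from 78.5, 79.4 and 82.4 TPM to 116, 126 and 154 TPM, and had no common direction in D/F (25.7 to 61.9 TPM). Ighm was called higher above 2-fold in T/F (log2 fold change 1.46, limma adjusted p = 0.00088) and was the only 1 of the 5 higher in all 3 T/F mice. In all 3 T/F mice 3 of 5 were lower, and the list's median log2 fold change there was -0.41. Cd79b was lower in all 6 mice. The part of these cells in the values of Gata1, Pf4 and Itga2b was not tested.

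**Figure D5:**
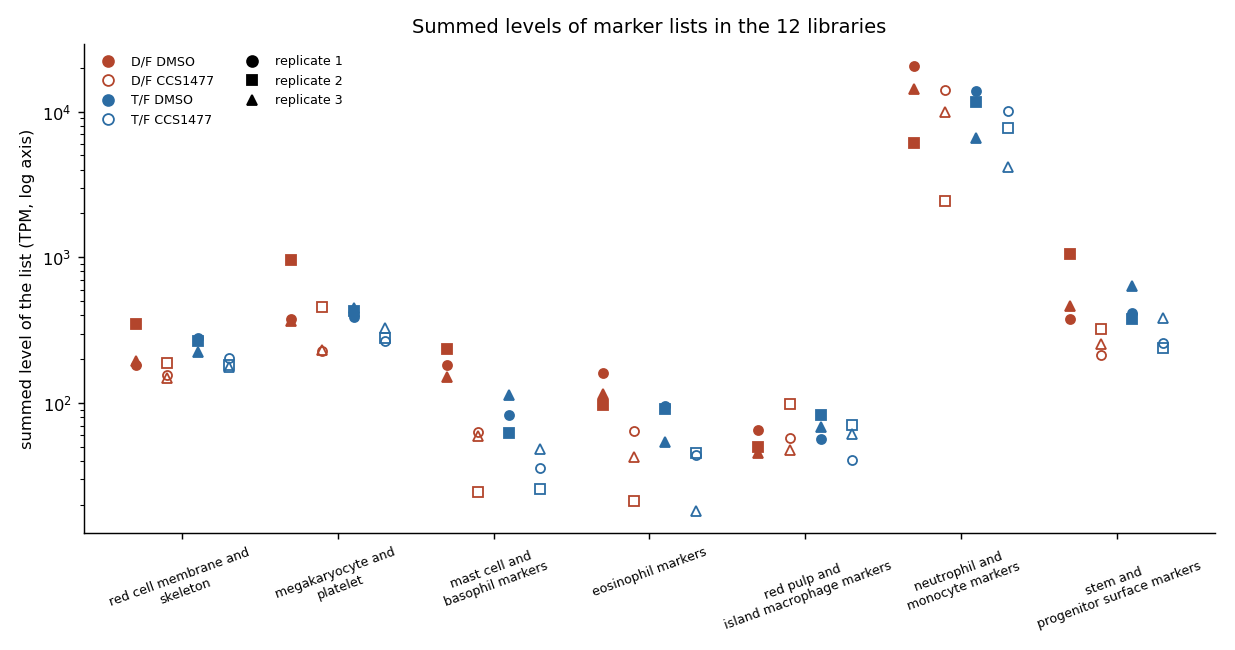
Summed abundance in TPM (log axis) of 7 marker lists in the 12 libraries, D/F in red and T/F in blue, DMSO filled and CCS1477 open, with symbols for replicates. The mast cell, eosinophil and megakaryocyte sums are lower with CCS1477 in each mouse, and D/F replicate 2 with DMSO (filled red square) has the highest megakaryocyte and the lowest neutrophil and monocyte sum of the DMSO libraries.

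Whether the response differed between T/F and D/F was tested by an interaction term over all 4 groups, which called 0 of 15583 genes (0.00%), with 659 at an unadjusted p under 0.05, and 0 with mouse as a block (0.00%), with 2293 at an unadjusted p under 0.05. For Gata1 the T/F response was smaller than that in D/F by 0.93 on the log2 scale (SE 0.25 blocked, limma adjusted p = 0.232), and for Klf1 the difference was -0.60 (SE 0.22 blocked, adjusted p = 0.305). For Tfrc it was -0.06 (SE 0.20 blocked, adjusted p = 0.921). Doses differed, so these values describe D/F at 4 μM beside T/F at 2 μM.

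Levels of the 9 genes were also compared between genotypes within each treatment, and 0 of 9 were called. Over all genes, 5 were called with DMSO (0.0328%) and 5 with CCS1477 (0.0329%). With DMSO, Klf1 was at 2.39 to 7.36 TPM in T/F and 1.22 to 3.16 TPM in D/F, overlapping groups with a log2 difference of 1.02 (SE 0.40, limma adjusted p = 0.768). With CCS1477, Gata1 was higher in all 3 T/F than in all 3 D/F samples (2.63 to 5.09 TPM against 0.617 to 2.11 TPM), with a log2 difference of 1.27 (SE 0.31, adjusted p = 0.274) and an exact permutation p of 0.1, and it was the only member whose genotype groups did not overlap (1 of 9, beside 20.3% of all genes with CCS1477; 0 of 9 with DMSO, beside 12.6%). The comparisons share the samples of the treatment comparisons. Differences for Pf4 and Itga2b with DMSO (-0.14 and -0.72) changed sign without D/F replicate 2 (0.55 and 0.08).

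The genes nearest to each member in pattern were ranked by the root mean square difference of z-scored log2(TPM + 1) over the 12 libraries, for which the median over 15583 genes was between 1.23 and 1.63. The points share 6 mice, and D/F replicate 2 weighs on most of these patterns. Gata1 was nearest to Hemgn (0.32), Samd14 (0.33) and Cd79b (0.36), and Klf1 to Tspo2 (0.24), Ces2g (0.27) and Rhag (0.32). Epor was near to Abcb4 (0.28) and Slc25a21 (0.30), and Hbb-bt nearest to Abcb4 (0.34), Car2 (0.35) and Epor itself (0.36). Pf4 was near to Samd14 (0.31) and Mfsd2b (0.35), and Itga2b nearest to Rab37 (0.14), Eya2 (0.18) and Padi2 (0.23). Gfi1b was nearest to Ache (0.24), Psrc1 (0.36) and Nox1 (0.36). Tfrc was nearest to C1qbp (0.16), Nudcd1 (0.18) and Ints5 (0.19), and Alas2 to Gm4787 (0.23), Mipol1 (0.32) and B230206H07Rik (0.32), none of them in the erythroid or megakaryocyte lists.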

How the data were processed

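RNA from 12 libraries, 4 groups of 3 mice, was analysed. The authors quantified reads with kallisto against mm10, per the processing notes (versions are not given in the sources used here), and deposited gene-level TPM for 15651 Ensembl genes; every gene reaches 2 TPM in some library, and libraries sum to 914204 to 931697 TPM. The study's methods state a nominal sequencing depth per sample. Read counts per gene and library are unknown, so no counting interval is given. The labels name both ribosome depletion and a stranded mRNA kit. Symbols were assigned to 15252 identifiers from the reference tables (GENCODE vM21, RefSeq).

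Differential abundance was tested on log2(TPM + 1) with limma 3.58.1 (R 4.3.3), two-sided, Benjamini-Hochberg adjusted over genes whose mean reached 1 TPM in a compared group, which all 9 members did, and called at an adjusted p under 0.05 and above 2-fold (any size for interaction and genotype comparisons). Scripts were tested on simulated data. Tables were handled in Python 3.11.15 with pandas 2.3.3. The labels name the mouse of each library, so the DMSO and CCS1477 samples are pairs. Deviations of the same mouse correlated at 0.34 to 0.66, those of different mice at most 0.13. Each p without the mouse block measures the spread between these mice. With mouse as a block, it measures the spread of the within-mouse differences.

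The members and lists were chosen with earlier results of these data known. Named were all members, the 3 most abundant genes of each list, genes of the erythroid and megakaryocyte lists called in both genotypes, and the 3 nearest in pattern; some genes so chosen are not reported here. Fli1, Runx1, Gata2, Zfpm1, Tfr2, Tent5c, Hemgn, F5, F2rl2, Gp1ba, Vwf, Slc4a1, Aqp1, Fech, Uros, Urod, Aco1, Ireb2, Slc40a1, Treml1, Ngp, Ltf, Vcam1, Adgre1, C1qb and the marker genes without a row were named after their values were seen. Alternatives were another pseudocount, other filters, rescaling, quantile normalization, a variance trend, a shared fit, the mouse block and leaving out each replicate. The block without D/F replicate 2 was chosen after seeing the data.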

Additional observations from a re-analysis of the deposited data

How the results depend on the processing

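Of 540 alternative values for single members, 503 kept their direction and side of the threshold, 7 were newly called and 30 changed sign, none of them a called value. Read counts are unknown, which leaves the counting error of the low genes Epor, Hbb-bt, Klf1 and Gata1 without an estimate. With mouse as a replicate block, 1737 genes and 3 members were called in D/F (Gata1, Tfrc and Pf4), and no other member's call above 2-fold changed. The shared fit of 4 groups called 2 members there (Gata1 and Tfrc). Leaving out 1 mouse at a time gave 0 to 1526 calls in D/F, with 0 by limma without replicate 1 or 3 (2494 and 2330 genes at an unadjusted p under 0.05) and 0 to 1 members. The block without D/F replicate 2 gave 1710 genes and 1 member (Gata1). Without that mouse Epor and Hbb-bt fell under the filter in D/F. Why a count moved was not tested.

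Between genotypes, 5 calls with DMSO became 9 with a filter at 5 TPM, 8 after rescaling to the median gene, 9 after quantile normalization, 20 in the shared fit, and 4 to 9 without 1 mouse. With CCS1477, 5 calls became 11 with a variance trend, 71 in the shared fit, and 2 to 27 without 1 mouse.

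Small differences changed sign. For Klf1 in D/F the value was -0.0032 with a pseudocount of 0.1 TPM, -0.022 after rescaling, -0.00025 in the block without D/F replicate 2, and -0.10 to 0.11 without 1 mouse. For Alas2 it was -0.18 to 0.050 in D/F and -0.29 to 0.098 in T/F without 1 mouse. For the difference of the responses, Gfi1b was at -0.012 after rescaling, and without 1 mouse Gfi1b ranged from -0.14 to 0.20, Tfrc from -0.25 to 0.083, Alas2 from -0.24 to 0.14 and Hbb-bt from -0.38 to 0.53. For T/F against D/F with DMSO, leaving out 1 mouse gave -0.062 to 0.91 for Gata1, -0.24 to 0.82 for Gfi1b, -0.0027 to 0.49 for Tfrc, -0.65 to 0.55 for Pf4 and -1.23 to 0.076 for Itga2b. With CCS1477 it gave -0.26 to 0.90 for Gfi1b, -0.040 to 0.84 for Pf4, -0.25 to 0.49 for Tfrc and -0.59 to 0.16 for Itga2b.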
